A study of Arabidopsis thaliana with 12 samples.

Results

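Leaves of unstressed Arabidopsis plants that overexpress the heat shock factor HSFA1b were set against leaves of heated wild-type plants, to show which transcripts of the acute heat state were not reached, were reached or were exceeded at the growth temperature. The comparison took 6 of the 12 columns of 1 expression table, namely the 3 columns named 35S NS and the 3 columns named WT HS. The 35S NS plants carried HSFA1b fused to a red fluorescent protein in the Col-0 background and stayed at 23 °C (NS, no stress). The WT HS plants were Col-0 that spent 30 min at 37 °C (HS, heat stress), with the air humidified so that its drying power did not change, and were harvested as soon as the heat ended. All plants were 5 weeks old and grown in short days in a controlled chamber, and the labels name leaves as the source. The 3 WT NS columns (Col-0 at 23 °C) gave each gene its unstressed level, shared in the estimate of spread and entered the filter on the mean. They also took part in choosing the genes above or below all WT columns and the genes that reached the heated level. The 3 columns of heated overexpressor entered no comparison of genes. The genotype and the temperature differ together between the compared groups, so their parts in a difference cannot be told apart from these 6 columns, and WT NS values are set beside the results for that reason. The viral 35S promoter drives the fusion in nearly all leaf cells, not only where HSFA1b is normally made, and the plants are of 1 transgenic line.

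HSFA1b is a clade A1 heat shock factor, one of the master regulators that are present before stress, are held inactive by chaperones and bind heat shock elements in promoters once heat unfolds proteins. Their targets include chaperone genes and a further set of regulators, among them HSFA2, HSFA7A, DREB2A and MBF1C, which prolong and widen the response. Acute heat in leaves also brings fast wound-like, calcium and hormone responses and lowers transcripts of the clock and of secondary metabolism.

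The unit is FPKM, fragments scaled to the length of the transcript and to the mapped fragments of the library, which allows levels to be compared between genes. Of 33557 loci in the table, 17710 averaged 1 FPKM or more over the 9 columns and entered limma, which fits a linear model to each gene and steadies its variance with that of all genes, on log2(FPKM + 0.01). A gene was called where its p, adjusted by Benjamini-Hochberg, did not exceed 0.05, and a log2 difference is 35S NS minus WT HS on that scale, so that a negative value is a lower level in the overexpressor. On this scale the difference of a gene near 0 FPKM depends on the constant that is added. For a single gene, the smallest p of an exact permutation test (two-sided) between 3 columns and 3 is 0.1.

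The 3 35S NS columns did not behave alike for abundant transcripts. Rubisco small subunit, activase and antenna genes took 6.9% and 6.98% of all FPKM in columns 0 and 1 but 15.5% in column 2, against 12.3% to 15.6% in WT HS and 17.2% to 19.5% in WT NS. Relative to column 2, the median gene of 10 to 100 FPKM differed by 0.02 on the log2 scale in column 0, and the median gene above 3000 FPKM by -1.31. Of the 3 35S NS libraries, 2 carry another submission number in their labels than the third and all WT libraries. The 3 heated overexpressor libraries, which differ from WT in genotype too, carry that other number. Rubisco and antenna genes took 6.61% to 7.19% of all FPKM in their columns. Columns could not be matched to libraries within 35S NS, so the part of the submission in any difference was not tested. Counts or medians for single lists are therefore also given with column 2 as the only 35S NS column. With 1 35S NS column the error of each difference is larger. A call can thus be lost in that fit although the difference did not shrink, and lost calls there do not show which columns made a difference. The WT HS columns differed among themselves in touch, ZAT, ERF and ER genes, with the highest values in column 2. In WT NS, column 0 stood apart for salicylic acid defence genes, which summed to 1260 FPKM against 126 and 152 in columns 1 and 2. ER folding genes summed there to 1580 against 849 and 901. Root hair, flower and seed marker genes stayed below 1 FPKM in every column, and mesophyll markers such as RBCS1A were among the most abundant transcripts. Of 4 mesophyll markers, 3 were called lower in 35S NS (median -1.52). Guard cell markers FAMA and MYB60 were called higher, the epidermal ATML1 lower, and the phloem gene SUC2 was not called. With column 2 alone, 0 markers of either list were called. In whole leaves, fewer cells of a type and less RNA per cell cannot be told apart.

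Of the tested genes, 6736 were called (38%), 3079 higher in 35S NS (17.4%) and 3657 lower (20.6%). These shares, 17.4% and 20.6%, are the background for all counts of single lists below. The median log2 difference over all tested genes was -0.015. Large differences lay mostly on the lower side, with 364 genes called at least 2 log2 units lower (2.06%) and 85 called at least 2 higher (0.48%). The split of the calls depends on the scaling of the columns. All FPKM summed to 632800 to 833300 in the 35S NS columns and to 1222000 to 1280000 in the WT HS columns. Of the calls, 45.7% were higher in the deposited values, 57.3% after quantile normalization and 63.8% after upper quartile scaling, which moved the median difference of all genes to 0.126. With 35S NS column 2 alone, 665 genes were called higher and 1255 lower.

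HSFA1B itself (AT5G16820) was at 430, 462 and 624 FPKM in the 35S NS columns and at 6.17, 6.56 and 7.31 in the WT HS columns, with 3.1 to 4.79 in WT NS. The lowest 35S NS column was far above every WT column, as the titles of the libraries require. The difference was 6.22 log2 units (SE 0.19, limma adjusted p = 2.2e-07), a 75.6-fold ratio of means. The value of the locus may hold reads from the transgene and from the native gene together. Among the other clade A1 factors, HSFA1D was at 5.33 to 5.83 FPKM in 35S NS and at 10 to 15.2 in WT HS (log2 difference -1.11, adjusted p = 0.00098), while HSFA1A (0.26, adjusted p = 0.24) and HSFA1E (-0.23, adjusted p = 0.66) were not called.

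The tested HSF genes with the lowest shares of the heated level in 35S NS were HSFA7B, HSFA2, HSFA7A and HSFA3. HSFA2, which sustains the response after clade A1 factors start it, was at 17.7, 20.1 and 21.5 FPKM in 35S NS and at 2410, 2330 and 3230 in WT HS. Its level in heated wild type was 134 times that in the overexpressor (log2 difference -7.06, SE 0.39, limma adjusted p = 7.8e-06), while its WT NS columns were at 3.53 to 12.4. HSFA7A was at 8.67, 10.9 and 8.53 FPKM in 35S NS and at 754, 877 and 1020 in WT HS (-6.56, SE 0.18, adjusted p = 2.2e-07). HSFA7B stayed at 0.0778 to 0.159 FPKM in 35S NS, close to its WT NS values of 0 to 0.0724, and was at 93.8, 112 and 190 in WT HS. The groups did not overlap in these 3 genes, which follows from their choice among the 12 largest decreases without overlap. HSFA3, a target of DREB2A, was below 1 FPKM in each 35S NS column and at 5.37, 7.79 and 24.2 in WT HS (-4.21, adjusted p = 0.0022).

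Class B factors mostly act as repressors. HSFB2A was at 52.7, 57.6 and 61.9 FPKM in 35S NS and at 77.4, 77.3 and 106 in WT HS, so that the overexpressor stood at 66% of the heated mean with 5 to 7.15 FPKM in WT NS. The remaining gap was called (log2 difference -0.59, SE 0.17, limma adjusted p = 0.023). It was -0.47 with column 2 alone, and -0.3 and not called after quantile normalization (adjusted p = 0.15). HSFB1 was at 86.4, 109 and 148 FPKM in 35S NS and at 488, 552 and 870 in WT HS (-2.46, adjusted p = 0.00064), or 18% of the heated mean, and HSFB2B was also lower (-2.19, adjusted p = 6.4e-06) at 21.9%. The shares of HSFB1 and HSFB2B lay within the range of heat-called class A genes. They were below HSFA4A (33.5%), HSFA8 (35.3%), HSFA1D (45.6%) and HSFA1E (79.3%). They were above HSFA3 (4.47%), HSFA7A (1.06%), HSFA2 (0.744%) and HSFA7B (0.0982%). Of the 17 tested HSF genes, 11 were lower, 2 higher and 4 not called, with a median of -1.11, and column 2 alone gave 7 lower and 1 higher. The second higher gene was HSFA5 (0.33, adjusted p = 0.045), whose call was lost in each of the 9 fits that left out 1 column.

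**Figure D1:**
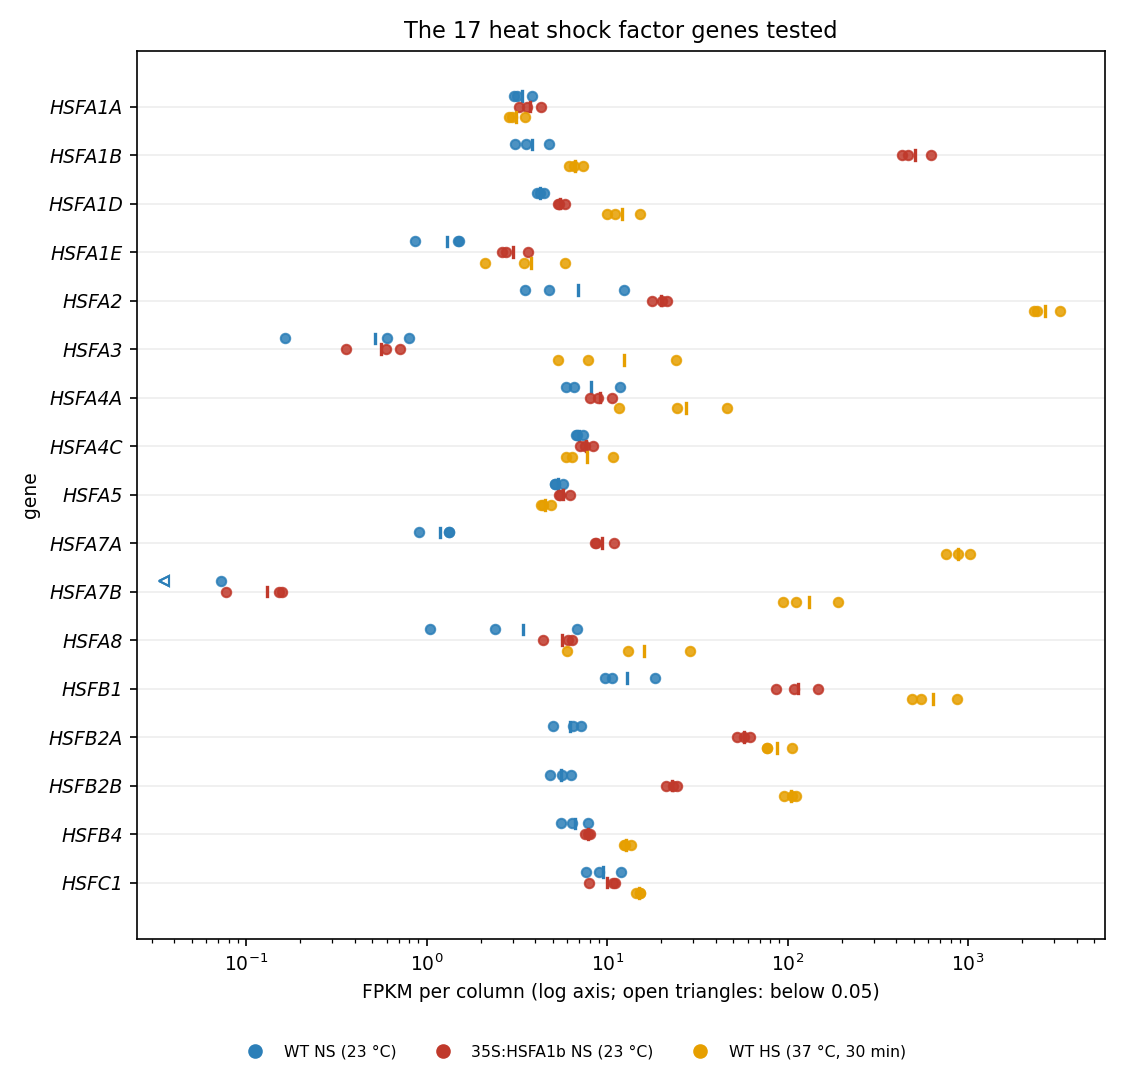
FPKM of the 17 tested heat shock factor genes on a log axis, with 1 point per column and a bar at each group mean (3 columns per group). HSFA1B is the only gene with 35S NS points far above both WT groups, HSFA2, HSFA7A and HSFA7B have WT HS points far to the right of 35S NS, and HSFB2A has both groups close together.

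The 12 genes furthest below heated wild type were HSFA2, HSFA7A, HSFA7B, the regulator DREB2A, chaperones and co-chaperones, and 3 genes of other kinds. The J-domain protein gene AT1G71000 was at 3.26, 2.47 and 2.82 FPKM in 35S NS and at 698, 685 and 986 in WT HS, a 277-fold ratio (log2 difference -8.1, SE 0.86, limma adjusted p = 0.00032). Its WT NS columns were at 0, 0 and 0.121 FPKM, so the overexpressor made the transcript but stood far from the heated level. The snoRNA gene AT4G39364 was listed at 0 in every 35S NS and WT NS column and at 343, 148 and 218 FPKM in WT HS. It is 122 bp long and has near-identical neighbours, and FPKM of so short a locus is uncertain. AT5G10695, annotated as a methionyl-tRNA synthetase, was at 17.2 to 23.4 FPKM in 35S NS and 837 to 2040 in WT HS (-5.85, adjusted p = 7.6e-05), and the TIR-NBS gene AT1G66090 at 3.4 to 5.6 and 104 to 705 (-5.84, adjusted p = 0.00034). AT5G10695, HSP101, FES1A and DREB2A overlap genes on the opposite strand, and strand-specific counting is not stated in the sources used here, so reads of overlapping partners may be mixed.

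**Figure D2:**
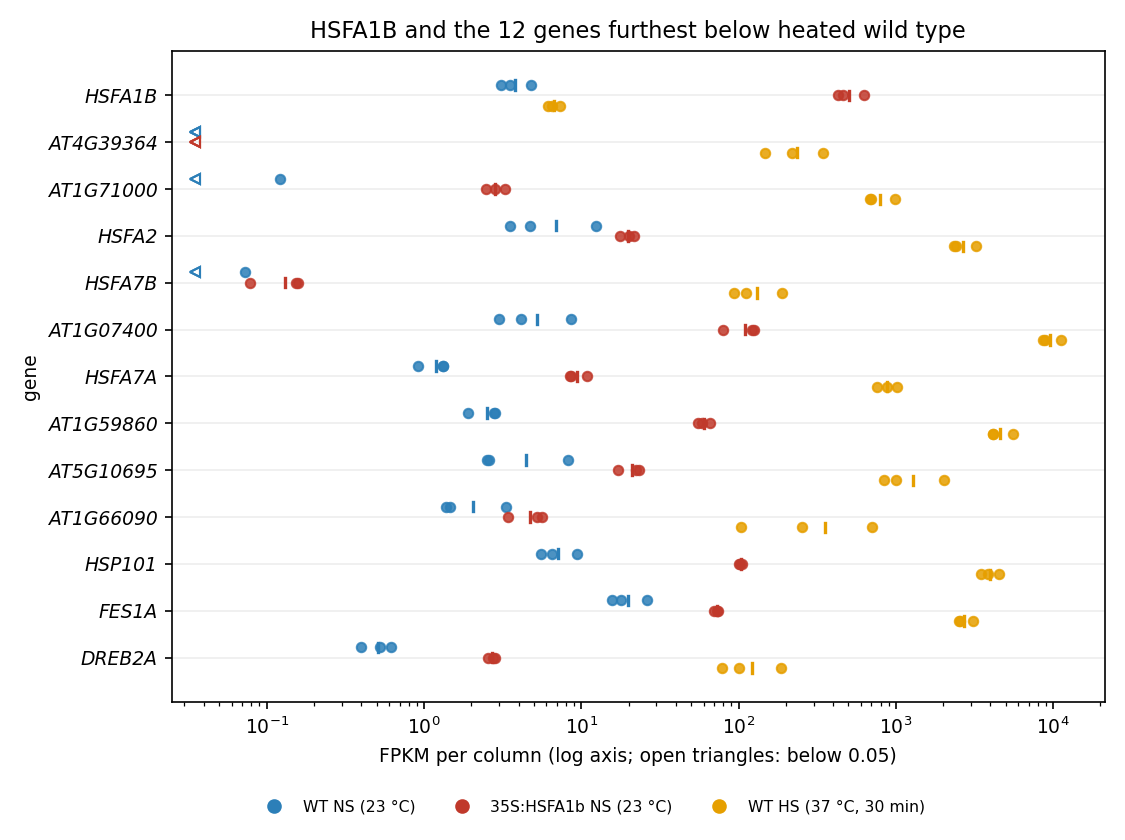
FPKM per column on a log axis of HSFA1B and the 12 genes with the largest decreases from WT HS to 35S NS, with bars at group means of 3 columns and open triangles for values below 0.05. For every gene but HSFA1B the WT HS points lie far to the right, and the 35S NS points of AT1G07400, AT1G59860 and HSP101 lie between WT NS and WT HS.

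A heat shock element built of 3 inverted units (GAANNTTCNNGAA, or TTCNNGAANNTTC on the other strand, with overlapping matches counted separately) was searched for in the 250 bases before each annotated gene start in the RefSeq TAIR10.1 assembly. It was present before 77 of 17606 tested genes with a full window (0.437%), and before 5 of the 12 genes furthest below heated wild type. Those 5 and 3 other list members with a match are shown, since the element is the letters that the factor family binds and these genes include some of the largest differences. The clock gene PRR7, at 43.2% of its heated mean, also held a match, at -74, and is not shown. Each is written 5′ to 3′ on the gene's strand in lower case, with the matched elements in capitals and positions given from the gene start.
AT1G71000 (chr1:26770261-26770338, minus strand, -161 to -84): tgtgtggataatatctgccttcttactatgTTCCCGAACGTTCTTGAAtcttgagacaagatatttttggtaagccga
HSFA2 (chr2:11135506-11135578, plus strand, -118 to -46): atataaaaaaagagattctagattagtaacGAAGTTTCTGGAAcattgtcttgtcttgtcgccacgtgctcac
HSFA7B (chr3:23399049-23399121, plus strand, -187 to -115): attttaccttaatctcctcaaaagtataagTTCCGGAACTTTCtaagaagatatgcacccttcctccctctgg
HSFA7A (chr3:19264919-19265041, plus strand, -222 to -100): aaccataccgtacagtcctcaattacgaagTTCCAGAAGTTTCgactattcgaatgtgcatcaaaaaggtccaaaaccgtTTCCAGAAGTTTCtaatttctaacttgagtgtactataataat
DREB2A (chr5:1602011-1602083, plus strand, -194 to -122): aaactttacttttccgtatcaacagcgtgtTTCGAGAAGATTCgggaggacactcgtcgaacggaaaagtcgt
HSP17.4 (chr3:16984868-16984996, minus strand, -129 to -1): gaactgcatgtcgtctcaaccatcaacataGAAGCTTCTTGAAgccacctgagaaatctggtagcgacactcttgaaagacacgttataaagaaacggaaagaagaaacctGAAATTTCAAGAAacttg
AT1G53540 (chr1:19980216-19980288, plus strand, -83 to -11): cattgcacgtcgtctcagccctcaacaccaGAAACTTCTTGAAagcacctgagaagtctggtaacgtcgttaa
GOLS1 (chr2:19370536-19370608, minus strand, -130 to -58): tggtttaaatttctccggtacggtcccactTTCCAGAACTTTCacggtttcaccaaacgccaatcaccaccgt
A match is a description of these letters and not a measured binding site. AT1G71000 holds 2 overlapping matches that form a run of 4 units, HSFA7A and HSP17.4 hold 2 separate ones, and the level in 35S NS ranged over the 8 genes shown from 0.0982% of the heated mean in HSFA7B to 33% in GOLS1. None of the windows of the 14 HSP100 and HSP70 genes held this full form of the element.

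The 6 chaperone lists together held 67 tested genes, of which 61 were lower in 35S NS, 0 higher and 6 not called. The median log2 difference was -2.78, and the median gene stood in 35S NS at 14% of its heated mean. The size of these gaps and shares depends on the scaling. After quantile normalization the list medians were -2.73 for cytosolic and -2.77 for organelle small heat shock proteins. They were -1.9 for HSP100 and HSP70, -2.14 for HSP90 and chaperonins, -1.5 for co-chaperones and -1.63 for ER folding. The small heat shock protein, HSP100 and HSP70, and HSP90 and chaperonin lists summed to 1.51% to 1.57% of all FPKM in 35S NS. They summed to 10.1% to 12.8% in WT HS and 0.449% to 0.535% in WT NS, so the 3 groups did not overlap. The co-chaperone and ER lists were left out of these sums. Of the 67 genes, 63 had all 35S NS columns below all WT HS columns, against 27.3% of all tested genes.

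Cytosolic small heat shock proteins hold unfolded proteins in a form that can be refolded. Of 11 tested genes, 10 were lower in 35S NS and 0 higher, with a median log2 difference of -3.98 (9 of 11 and -3.76 with column 2 alone). AT1G07400, annotated as an HSP20-like chaperone, was at 79.7, 126 and 122 FPKM in 35S NS and at 8850, 8690 and 11300 in WT HS (log2 difference -6.48, SE 0.35, limma adjusted p = 7e-06). Its WT NS columns were at 2.98 to 8.55, and the overexpressor stood at 1.14% of the heated mean, the lowest share of the list. AT1G59860, of the same annotation, was at 55.1, 58.7 and 66 FPKM against 4180, 4120 and 5580 (-6.26, adjusted p = 2.2e-07). HSP18.2, in contrast, was at 587, 650 and 872 FPKM in 35S NS and at 2070, 2190 and 4200 in WT HS, or 24.9% of the heated mean, with 3.49 to 5.52 in WT NS. Its gap of -1.95 (SE 0.29, adjusted p = 0.0014) was the smallest of the called members. The gap was -1.61 with column 2 alone, and -0.62 and not called after quantile normalization (adjusted p = 0.094). The class II genes HSP17.6II at 899 to 1440 FPKM in 35S NS and 8010 to 10600 in WT HS (-3.09) and HSP17.6A at 507 to 685 and 8600 to 10800 (-3.98) lay between these ends. AT4G21870 was the member not called, at 2.92 to 4.11 FPKM in 35S NS, 2.45 to 3.13 in WT HS and 2.55 to 5.24 in WT NS.

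All 6 organelle small heat shock protein genes were lower in 35S NS (median -3.84), 4 of them with column 2 alone. HSP22 of the endoplasmic reticulum was at 65.8, 96.9 and 79 FPKM against 1550, 1730 and 2860 in WT HS (-4.63, SE 1.13, limma adjusted p = 0.013). The plastid protein gene HSP21 was at 171, 214 and 179 FPKM in 35S NS and at 677, 924 and 1770 in WT HS (-2.47, SE 0.39, adjusted p = 0.0019), or 16.8% of the heated mean, the highest share of the list. The 2 groups did not overlap in either gene, and both were at 0 to 0.386 FPKM in WT NS.

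HSP101, the disaggregase required for acquired thermotolerance, was at 101, 102 and 106 FPKM in 35S NS and at 3880, 3500 and 4540 in WT HS (log2 difference -5.26, SE 0.18, limma adjusted p = 6.1e-07), with 5.54 to 9.43 in WT NS. The 3 overexpressor columns agreed closely and stood at 2.59% of the heated mean. HSA32, which keeps HSP101 from being degraded, was at 155, 162 and 165 FPKM in 35S NS and at 452, 546 and 562 in WT HS (-1.69, SE 0.13, adjusted p = 4.6e-05), from 2 to 2.71 in WT NS. HSA32 thus stood at 30.9% of its heated level. Among cytosolic HSP70 genes, HSP70 (AT3G12580) was at 595 to 883 FPKM against 8140 to 9930 (-3.66, adjusted p = 2e-05) and HSP70B at 176 to 263 against 2230 to 4000 (-3.62, adjusted p = 2e-05). HSP70-2 was at 12.3, 10.2 and 11.2 FPKM in 35S NS and at 160, 339 and 902 in WT HS, while its WT NS columns were at 13.7 to 31 (-5.03, SE 0.56, adjusted p = 0.0004). HSP70-2 was therefore far below the heated level with no 35S NS column above its unstressed wild-type values. MTHSC70-2 of mitochondria was at 75.4 to 79.4 FPKM against 1520 to 1870 (-4.41, adjusted p = 2.2e-07), while MTHSC70-1 had the smallest gap of the list (-0.45, adjusted p = 0.0054). All 14 tested HSP100 and HSP70 genes were lower, with a median of -3.09, and 13 were lower with column 2 alone.

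The cytosolic HSP90 genes had very different unstressed levels. HSP90.1, the heat-inducible gene, was at 494, 556 and 655 FPKM in 35S NS and at 5530, 5230 and 6810 in WT HS (log2 difference -3.37, SE 0.39, limma adjusted p = 0.00046), from 11 to 38.7 in WT NS. The constitutive gene HSP81.3 was at 158, 152 and 164 FPKM in 35S NS, at 1690, 1690 and 2090 in WT HS and at 405, 352 and 390 in WT NS (-3.52, SE 0.11, adjusted p = 3.9e-07). Every 35S NS column of HSP81.3 was thus below all 6 WT columns. HSP81-2, its neighbour in the genome, was at 263 to 300 FPKM in 35S NS, 4600 to 5210 in WT HS and 291 to 362 in WT NS (-4.1, adjusted p = 2.2e-07). HSP81-2, HSP81.3 and HSP81.4 share at least 90% identity over 2211 to 2470 bp, so reads may be divided unevenly between them. All 9 HSP90 and chaperonin genes were lower (median -2.68), also with column 2 alone, and HSP60-2 had the smallest gap (-0.45, adjusted p = 0.019).

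Of the 11 co-chaperone genes, 9 were lower and 0 higher (median -2.52), and column 2 alone gave the same counts. FES1A, an HSP70 nucleotide exchange factor needed for thermotolerance, was at 74.3, 73.5 and 70.2 FPKM in 35S NS and at 2540, 2560 and 3090 in WT HS (-5.22, SE 0.18, limma adjusted p = 4.8e-07). The HSP70-HSP90 adaptor HOP3 was at 133 to 143 FPKM against 2070 to 2840 (-4.1, adjusted p = 1.8e-06). ROF2, an FK506-binding protein that works with HSP90 and HSFA2, was at 544, 566 and 753 FPKM against 4100, 4250 and 5180 (-2.87, SE 0.33, adjusted p = 0.00044), from 6.66 to 17.8 in WT NS. ROF2 stood at 13.8% of its heated mean and FES1A at 2.66%. The members not called were HOP1, at 20.1 to 23 FPKM in 35S NS and 21.7 to 25.7 in WT HS, and AT3G03773.

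Endoplasmic reticulum chaperones and folding enzymes were also below the heated level. BIP2 was at 112, 86.1 and 113 FPKM in 35S NS, at 664, 1090 and 1760 in WT HS and at 73.4 to 145 in WT NS (log2 difference -3.4, SE 0.37, limma adjusted p = 0.00036). It shares 97.2% identity with BIP1 over 2122 bp, and BIP1 gave -2.78 (adjusted p = 0.00041). The J-domain gene ERDJ3A was at 29.7, 31 and 26.9 FPKM in 35S NS, above its WT NS range of 0.916 to 4.71, and at 419, 431 and 623 in WT HS (-4.05, SE 0.49, adjusted p = 0.00054). Of 16 genes, 13 were lower and 0 higher (median -2.03), and 8 were lower with column 2 alone. CRT3, at 108 to 151 FPKM in 35S NS and 71.5 to 272 in WT HS, was the most abundant member not called, and its WT HS columns spanned the 35S NS range.

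MBF1C and DREB2A act between the clade A1 factors and later targets. MBF1C was at 312, 346 and 425 FPKM in 35S NS and at 4410, 4500 and 6150 in WT HS (log2 difference -3.79, SE 0.23, limma adjusted p = 1.4e-05), with 31.9 to 56.2 in WT NS. DREB2A was at 2.55, 2.82 and 2.75 FPKM in 35S NS and at 78.6, 101 and 185 in WT HS (-5.39, SE 0.29, adjusted p = 6.7e-06), with 0.399 to 0.613 in WT NS. The groups of both genes were clearly apart, and both transcripts in 35S NS lay above all WT NS columns. All 5 tested genes of this list were lower (median -1.75), 3 of them with column 2 alone.

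Some protective enzymes came nearer to the heated level than the chaperones. APX2, the heat-inducible cytosolic ascorbate peroxidase, was at 108, 138 and 116 FPKM in 35S NS and at 148, 174 and 438 in WT HS, and at 0 in every WT NS column. The lowest WT HS column was just above the highest 35S NS column, and the gap was not called (log2 difference -0.9, 95% interval -1.69 to -0.11, limma adjusted p = 0.07). GOLS1, which makes the galactinol used in raffinose synthesis, was at 612, 982 and 1320 FPKM in 35S NS and at 2660, 2730 and 3440 in WT HS (-1.66, SE 0.3, adjusted p = 0.0033), with 39.3 to 70.4 in WT NS. GOLS1 was lowest in column 0. Its difference was -1.15 with column 2 alone, and -0.24 and not called after quantile normalization (adjusted p = 0.5). GOLS2 was at 183 to 265 FPKM against 375 to 716 and was not called (-1.06, adjusted p = 0.055). Of the 5 tested genes of that list, 2 were lower, against 20.6% of all tested genes, and 1 after quantile normalization. Of 12 antioxidant genes, 8 were lower and 1 higher (median -0.62), among them the cytosolic APX1 at 739 to 932 FPKM against 1960 to 2430 (-1.33, adjusted p = 0.00031). Column 2 alone gave 2 lower and 0 higher, while quantile normalization gave 3 lower and 3 higher, with APX1 at 0.03, and 5 were lower without 35S NS column 1.

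**Figure D3:**
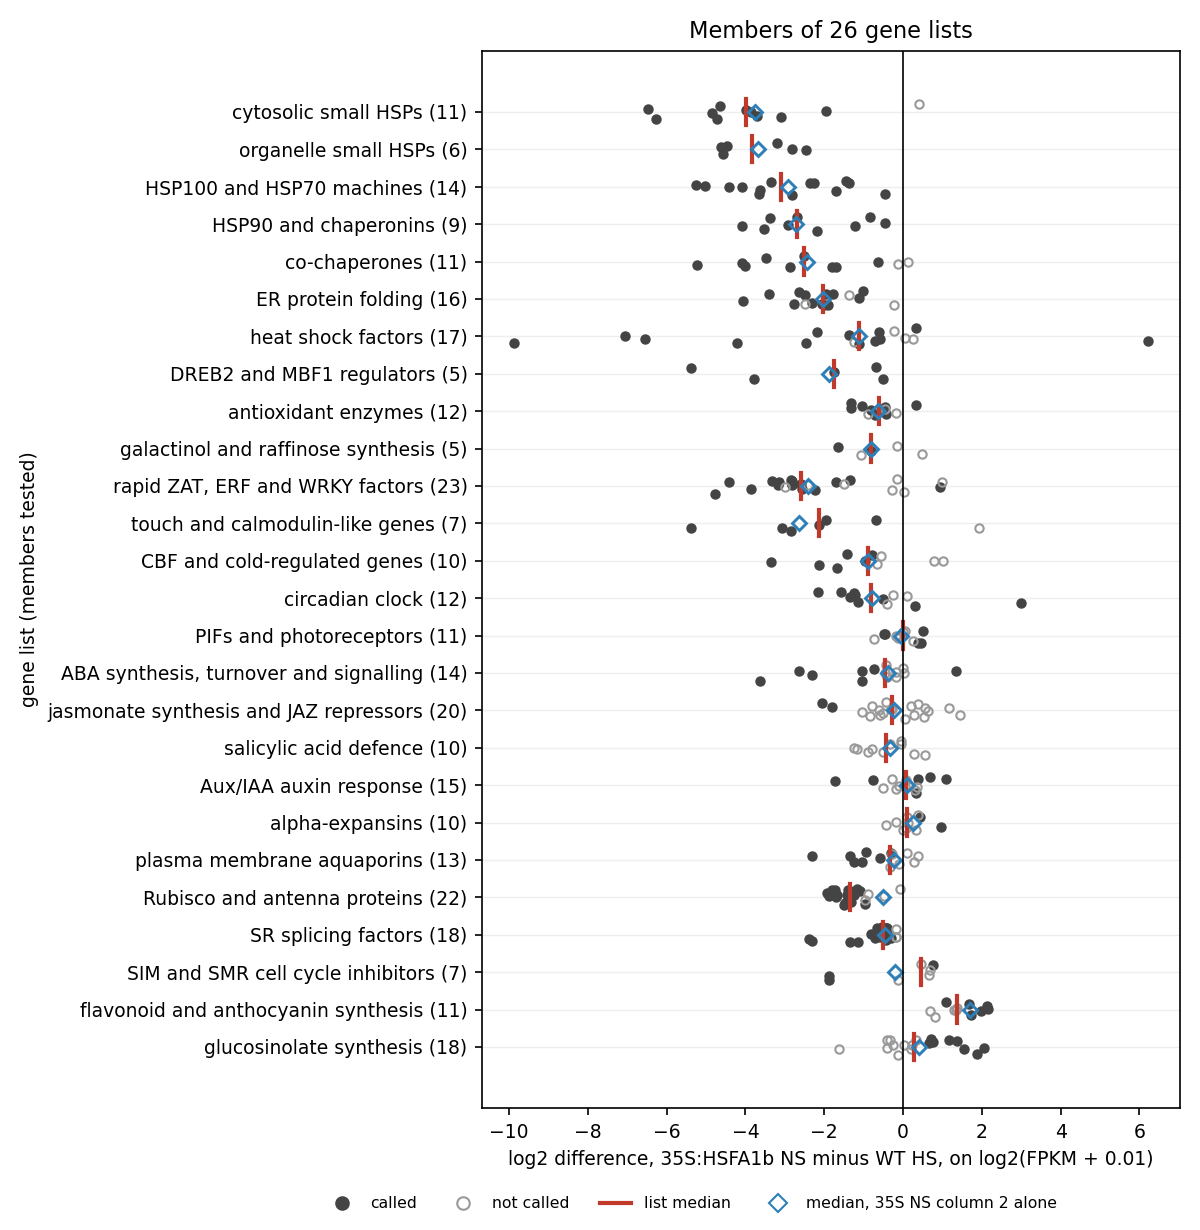
Log2 difference between 35S NS and WT HS for each tested member of 26 gene lists, with filled points for called genes, open points for genes not called, a red bar at the list median and a diamond at the median with 35S NS column 2 alone. Chaperone lists lie to the left with medians of -2.03 to -3.98, flavonoid synthesis lies to the right at 1.38, and the Rubisco and antenna list moves from -1.34 to -0.5 with column 2 alone.

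Fast stress regulators of the ZAT, ERF and WRKY families were low in 35S NS and widely spread over the WT HS columns. ZAT10, a zinc finger repressor, was at 9.11, 17.4 and 13.8 FPKM in 35S NS and at 117, 235 and 780 in WT HS (log2 difference -4.42, SE 0.62, limma adjusted p = 0.0011). ZAT7 was at 2.71 to 3.35 FPKM against 26, 91.3 and 256 (-4.78, adjusted p = 0.0058). Both genes were highest in WT HS column 2, with no overlap between the groups. Of 23 tested genes, 15 were lower and 1, the zinc finger gene AT2G28200, higher (0.94, adjusted p = 0.011), with a median of -2.58. Without WT HS column 2 the higher count was 2, and with 35S NS column 2 alone the list median was -2.4. WRKY70, a regulator of salicylic acid responses, was the most abundant member not called, at 139 to 171 FPKM against 26.9, 82.3 and 221 (1, adjusted p = 0.26).

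Touch-induced genes followed the same columns. CML37, a calmodulin-like protein gene, was at 2.02, 3.51 and 2.55 FPKM in 35S NS and at 28.6, 113 and 407 in WT HS (-5.38, SE 1.02, limma adjusted p = 0.0042), and the xyloglucan hydrolase gene TCH4 at 12.1, 14.3 and 10.4 against 36.1, 55.4 and 338 (-2.85, SE 0.68, adjusted p = 0.012). TCH4 in 35S NS was close to its WT NS values of 10.8 to 13.1, and the groups of both genes were apart. In all, 6 of 7 tested genes were lower. With column 2 alone the difference of CML37 was -5.42 and that of TCH4 -3.08. Among CBF and cold-regulated genes, 6 of 10 were lower and 0 higher (median -0.89), 3 lower with column 2 alone, led by CBF2 at 0.532 to 0.675 FPKM against 3.92, 4.33 and 12.9 (-3.35, adjusted p = 0.00071), and KIN2 was the most abundant member not called (-0.57, adjusted p = 0.18, but 0.76 after quantile normalization).

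LHY had the largest difference of the 12 tested clock genes. LHY, a morning repressor of the clock, was at 45.7, 51.1 and 51.1 FPKM in 35S NS, at 5.22, 6.86 and 6.52 in WT HS and at 62.3, 65.7 and 72.7 in WT NS. The level in 35S NS was 7.95 times that in WT HS (log2 difference 3, SE 0.12, limma adjusted p = 9.3e-07). Its partner CCA1 was at 130 to 133 FPKM in 35S NS and 145 to 166 in WT HS and was not called (-0.26, adjusted p = 0.078), while its groups did not overlap. RVE7 was at 18.5, 16.5 and 17.5 FPKM in 35S NS and at 91.4, 78.2 and 66.1 in WT HS (-2.16, SE 0.14, adjusted p = 1.6e-05), and it has a stretch of 615 bp that is near-identical to another locus. GI (-1.57, adjusted p = 2e-05), PRR9 (-1.35, adjusted p = 2.9e-05) and PRR7 (-1.21, adjusted p = 4.9e-05) were also lower. In total 7 of 12 tested clock genes were lower and 2 higher, against 20.6% and 17.4% of all tested genes. The second higher gene was RVE8 (0.3, adjusted p = 0.011). The list median was -0.82, and -0.79 with column 2 alone. Among light signalling genes, PIF4, a promoter of growth at warm temperatures, was at 68 to 78.1 FPKM in 35S NS and at 97.1 to 105 in WT HS (-0.48, adjusted p = 0.002). PIF5 went the other way, at 74.5 to 85.2 against 55.3 to 61.3 (0.46, adjusted p = 0.0038). Of the 11 genes of that list, 3 were higher and 2 lower, shares near those of all tested genes (17.4% and 20.6%), and column 2 alone gave 1 and 1.

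Among hormone genes, NCED3, the rate-limiting enzyme of abscisic acid synthesis under stress, was at 2.45, 3.78 and 3.62 FPKM in 35S NS and at 27.8, 26.6 and 86.2 in WT HS (log2 difference -3.63, SE 0.43, limma adjusted p = 0.00052), with 2.23 to 3.68 in WT NS. The catabolic gene CYP707A2 was the 1 higher member of that list, at 2.1 to 2.38 FPKM against 0.573 to 1.3 (1.35, adjusted p = 0.011). With column 2 alone its difference was 1.41. Of 14 abscisic acid genes, 6 were lower, against 20.6% of all tested genes. The list median was -0.46, and -0.37 with column 2 alone. Of 20 jasmonate genes, 2 were lower and 0 higher, smaller shares than the 20.6% and 17.4% of all tested genes. The lower genes were JAZ1 at 19.5, 51.3 and 35.8 FPKM against 85.7, 103 and 292 (-2.06, adjusted p = 0.016) and LOX4 (-1.81, adjusted p = 0.039). LOX2 at 451 to 1010 against 470 to 626 was not called (0.52, adjusted p = 0.33). With column 2 alone the difference of JAZ1 was -1.94 and that of LOX4 -1.74, and quantile normalization gave 5 jasmonate genes higher and 2 lower. None of the 10 salicylic acid defence genes was called, and the columns of 35S NS and WT HS overlapped in each, whereas they did not overlap in 51.6% of all tested genes. Among them PR1 ranged from 92.4 to 134 FPKM in 35S NS and from 56.7 to 378 in WT HS.

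Flavonoid synthesis genes were on balance higher in the overexpressor. F3H, flavanone 3-hydroxylase, was at 79.8, 120 and 119 FPKM in 35S NS and at 26.6, 25.1 and 20.2 in WT HS (log2 difference 2.14, SE 0.22, limma adjusted p = 0.00028). FLS1, which makes flavonols, was at 44.7, 45.1 and 47.8 FPKM against 11.8, 13.7 and 9.9 (1.97, SE 0.17, adjusted p = 0.00012), and CHS, the entry enzyme, at 305, 438 and 502 against 214, 197 and 165 (1.09, SE 0.21, adjusted p = 0.0046). The groups did not overlap in these genes, and 35S NS lay within or below the WT NS range, which for F3H was 108 to 179. Of 11 tested genes, 6 were higher and 0 lower, with a median of 1.38 (4 higher with column 2 alone). The late anthocyanin genes DFR (1.35, adjusted p = 0.08) and LDOX (1.38, adjusted p = 0.062) were not called, and in both 35S NS column 0 lay within the WT HS range, with DFR at 18.3 FPKM against 78.8 and 53.7 in the other columns. Without column 0, all 11 were higher.

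CYP79B2, CYP79B3 and CYP83B1 start the indole branch of glucosinolate synthesis, which makes tryptophan-derived defence compounds. CYP83B1 was at 223, 237 and 294 FPKM in 35S NS and at 48.3, 46.6 and 97 in WT HS (log2 difference 2.05, SE 0.27, limma adjusted p = 0.00087), and CYP79B2 at 42.9, 61.1 and 55.8 against 12.7, 9.45 and 23.8 (1.89, SE 0.31, adjusted p = 0.0021). Both groups of columns were apart, and the 35S NS values were near WT NS, where CYP83B1 was at 189 to 269. CYP79B3 (1.55, adjusted p = 0.00077) and the shared C-S lyase SUR1 (1.18, adjusted p = 0.00015) were also higher. So was the sulfotransferase gene SOT17 (1.36, adjusted p = 0.00092), which is not counted here with the indole branch. MYB51, a regulator of the indole branch, had the lowest share of the list at 23.8% of its heated mean, with 2.39 to 3.16 FPKM in 35S NS against 3.23, 7.34 and 23.3 in WT HS, and was not called (-1.62, adjusted p = 0.076). Of the methionine-derived aliphatic branch, the regulator MYB28 (0.72, adjusted p = 0.026) and CYP79F2 (0.66, adjusted p = 0.045) were higher, and CYP79F1 (0.2, adjusted p = 0.55), CYP83A1 (0.02, adjusted p = 0.96) and BCAT4 (-0.4, adjusted p = 0.14) were not called. CYP79F1 and CYP79F2 are near-identical copies of each other. In total 8 of 18 genes were higher, against 17.4% of all tested genes, and 0 lower. The list median was 0.28, and 0.4 with column 2 alone. Without 35S NS column 1 or column 2, 5 were higher.

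**Figure D4:**
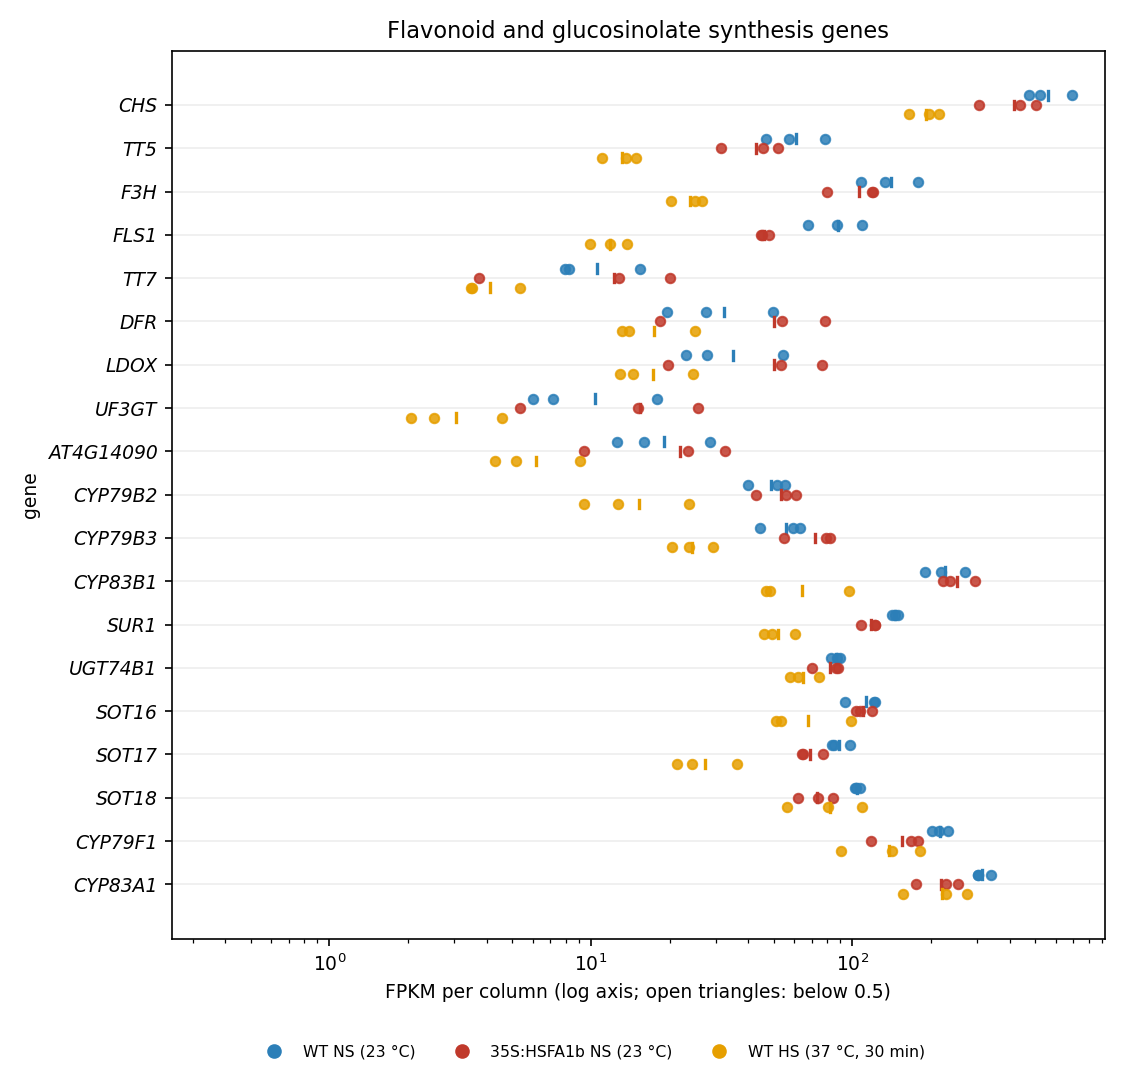
FPKM per column on a log axis for flavonoid genes (CHS to AT4G14090) and glucosinolate genes of both branches (CYP79B2 to CYP83A1), with bars at group means of 3 columns. For F3H, FLS1 and CYP83B1 the 35S NS points lie with or near WT NS and to the right of WT HS, while for DFR and LDOX 1 35S NS point lies among the WT HS points.

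Among growth-related genes, AXR3, a repressor of auxin responses, was at 84.4, 80.6 and 84.1 FPKM in 35S NS and at 43.4, 43.2 and 32 in WT HS (log2 difference 1.09, SE 0.18, limma adjusted p = 0.0023), and IAA29, a target of PIF factors, at 1.4 to 1.74 against 4.36 to 5.74 (-1.72, adjusted p = 0.00033). Of 15 Aux/IAA genes, 4 were higher and 2 lower, against 17.4% higher and 20.6% lower of all tested genes. The list median was 0.07, and 0.11 with column 2 alone. Of 10 alpha-expansins, 2 were higher, a share near the 17.4% of all tested genes, and 0 lower. EXPA11 had the larger difference (0.97, adjusted p = 0.014), and neither was called with column 2 alone. Among the 7 tested SIM and SMR cell cycle inhibitors, SMR1 was higher (0.75, adjusted p = 0.0045) and SMR4 and AT5G40460 lower. These few calls stand beside the same 17.4% and 20.6% of all tested genes. The list median was 0.45, and -0.21 with column 2 alone. SMR5, at 0 in every WT NS column, was at 30.2, 84.2 and 7.31 FPKM in 35S NS and at 11.5, 15 and 26.2 in WT HS, and these overlapping groups did not give a call (0.68, adjusted p = 0.5).

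Of 18 tested SR splicing factor genes, 15 were lower in 35S NS and 0 higher (median -0.5), with 6 lower by column 2 alone. SCL33 was at 34.3, 34 and 41 FPKM in 35S NS and at 163, 173 and 242 in WT HS (log2 difference -2.39, SE 0.17, limma adjusted p = 2.9e-05), near its WT NS range of 26.1 to 34.1. SR30 was at 103, 114 and 110 FPKM against 492, 503 and 616 (-2.3, SE 0.11, adjusted p = 2.3e-06), and unlike SCL33 all its 35S NS columns were above the WT NS range of 34.2 to 38.7.

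Lists of abundant genes moved with the columns that stand apart. Of 13 plasma membrane aquaporins, 7 were lower and 0 higher, 3 and 0 with column 2 alone, and 2 and 4 after quantile normalization. The aquaporin RD28 was lower in each of these, at 229, 288 and 321 FPKM against 1470, 1300 and 1330 (log2 difference -2.3, SE 0.13, limma adjusted p = 7.8e-06), and it has a near-identical copy, PIP2B. Of 22 Rubisco and antenna genes, 18 were lower and 0 higher with a median of -1.34, but 3 and 0 with a median of -0.5 by column 2 alone, and 1 and 8 with a median of 0.3 after quantile normalization. Leaving out WT HS column 1, 35S NS column 0 or 35S NS column 1 gave 11 lower. RBCS1A was at 3060, 3140 and 15500 FPKM in 35S NS against 21000, 20100 and 15000 in WT HS, so column 2 lay within the WT HS range and the other columns far below it.

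In 608 genes (3.43%) every 35S NS column was above all 6 WT columns beside a call against WT HS. After HSFA1B, the widest gaps from the lowest 35S NS column to the highest WT column on log2(FPKM + 1) were those of CML11, SYTD, AT1G62290, AT1G64195, AT3G06990, AT5G40382 and INT2. CML11, a calmodulin-like gene, was at 26.6, 26.9 and 22.9 FPKM in 35S NS, at 0.524, 0.868 and 2.41 in WT HS and at 1.15 to 1.95 in WT NS (log2 difference 4.6, SE 0.48, limma adjusted p = 0.00029). SYTD, a calcium-dependent lipid-binding protein gene, was at 24.1, 24.4 and 19.9 FPKM against 1.38, 1.98 and 2.31 (3.61, SE 0.2, adjusted p = 8e-06), with 0.507 to 0.59 in WT NS. The aspartyl protease gene AT1G62290 was at 57.8, 58.5 and 50 FPKM against 5.25, 7.69 and 4.92 (3.24, SE 0.18, adjusted p = 8.9e-06). That column 2 of these 3 genes exceeded the heated level, as columns 0 and 1 did, follows from the rule that chose them. INT2, an inositol transporter gene, was at 12.7, 21.2 and 16.8 FPKM against 0.995, 2.18 and 2.84 (3.16, adjusted p = 0.0018). The defensin-like gene AT1G64195 was at 9.05, 16.4 and 3.64 FPKM in 35S NS and listed at 0 in all 6 WT columns, and its call was lost whichever 35S NS column was left out (adjusted p up to 0.099). The C1 domain gene AT3G06990 was at 3.98 to 4.72 FPKM in 35S NS and at 0 to 0.0751 in WT HS, a low transcript with a near-identical neighbour, and AT5G40382 at 5.19 to 6.71 against 0.205 to 0.649 lost its call whichever of the 6 compared columns was left out (adjusted p up to 0.11).

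Other large increases over WT HS were in genes with substantial unstressed levels or uneven columns. AT3G14395, an uncharacterized gene, was at 31, 24.3 and 23.4 FPKM in 35S NS, at 1.24, 2.74 and 0.166 in WT HS and at 13 to 16.9 in WT NS (log2 difference 4.94, SE 0.81, limma adjusted p = 0.0022). The defence regulator WRKY54 was at 35.8, 30.9 and 38.5 FPKM against 0.612, 4.51 and 7.87 (3.64, SE 0.8, adjusted p = 0.0081), within its WT NS range of 24.1 to 52.9, and the cell wall gene XTH6 at 164, 130 and 174 against 38, 28 and 12.3 (2.72, SE 0.35, adjusted p = 0.00074). WT HS columns of WRKY54 and XTH6 differed among themselves much more than the 35S NS columns did. CSLA01, a glucomannan synthase-like gene, was at 7.87, 39.6 and 22.5 FPKM against 1.27 to 2.56 (3.39, adjusted p = 0.0023), and WRKY38 at 11.9 to 17 against 0.066 to 3.45 (4.36, adjusted p = 0.036), the latter losing its call without any 1 35S NS column (adjusted p up to 0.091).

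In 1025 genes (5.79%) every 35S NS column was below all 6 WT columns beside a call. AT5G15420, an uncharacterized gene, was listed at 0 in all 3 35S NS columns, at 8.85, 7.12 and 7.67 FPKM in WT HS and at 3.98 to 4.67 in WT NS. It holds a stretch that is near-identical to another gene. AT3G29644, a non-coding RNA gene, was at 1.49, 0.818 and 0.93 FPKM against 6.13, 7.66 and 5.31 (log2 difference -2.58, SE 0.23, limma adjusted p = 0.00012), and overlaps a gene on the opposite strand. LYK4, a LysM receptor kinase gene of chitin perception, was at 1.46, 1.57 and 1.54 FPKM against 3.35, 3.74 and 4.11 (-1.28, SE 0.15, adjusted p = 0.00052). LYK4 in WT NS was at 3.37 to 4.4, and that 35S NS lay below both WT groups follows from the rule that chose it. ACBP6, an acyl-CoA-binding protein gene, was at 253, 253 and 234 FPKM against 456, 485 and 463 (-0.92, adjusted p = 0.00018), and AT3G55240 (-1.11, adjusted p = 0.00059), AT5G62280 (-2.66, adjusted p = 8.4e-05) and the antenna gene LHCB1.4 (-1.89, adjusted p = 0.00064) completed, beside HSP81.3, the 8 genes with the widest gap from the highest 35S NS column to the lowest WT column on log2(FPKM + 1). After quantile normalization ACBP6 gave -0.16 and LHCB1.4 -0.33, and LHCB1.4 has a near-identical copy.

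In all, 4 genes met the rule for a heat transcript that was reached, namely a called heat difference in wild type of at least 2 log2 units with a 95% interval of the 35S NS minus WT HS difference inside 0.6 on either side of 0. A gene with a wide interval misses this rule without lying below the heated level, so 4 is not a count of all such genes. KIN1, with a heat difference of 3.03, gave 0.79 (95% interval -0.34 to 1.92). VHA-E3, subunit E3 of the vacuolar proton pump, was at 191, 306 and 247 FPKM in 35S NS, at 265, 256 and 252 in WT HS and at 17.8 to 29.2 in WT NS, and its difference was -0.08 (95% interval -0.56 to 0.4). AT2G30480, an uncharacterized gene, was at 16.2, 17.7 and 13.3 FPKM against 14.4, 13.4 and 17.3 (0.06, interval -0.25 to 0.37), with 1.35 to 1.43 in WT NS. The columns of both genes overlapped between 35S NS and WT HS and were apart from WT NS. ARL2, a J-domain gene related to a gravitropism gene, was at 23.8, 24.3 and 20.8 FPKM against 18.7, 17.8 and 21.4 (0.25, interval -0.02 to 0.53). AT1G49560, a homeodomain-like protein gene, was at 19.5, 17.9 and 17.1 FPKM against 19, 23.2 and 19.7 (-0.18, interval -0.44 to 0.08). After quantile normalization the difference of VHA-E3 was 0.6, and after upper quartile scaling ARL2 was called higher in 35S NS (0.39, adjusted p = 0.034), so the place of both depends on the scaling. ARL2 also overlaps a gene on the opposite strand.

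**Figure D5:**
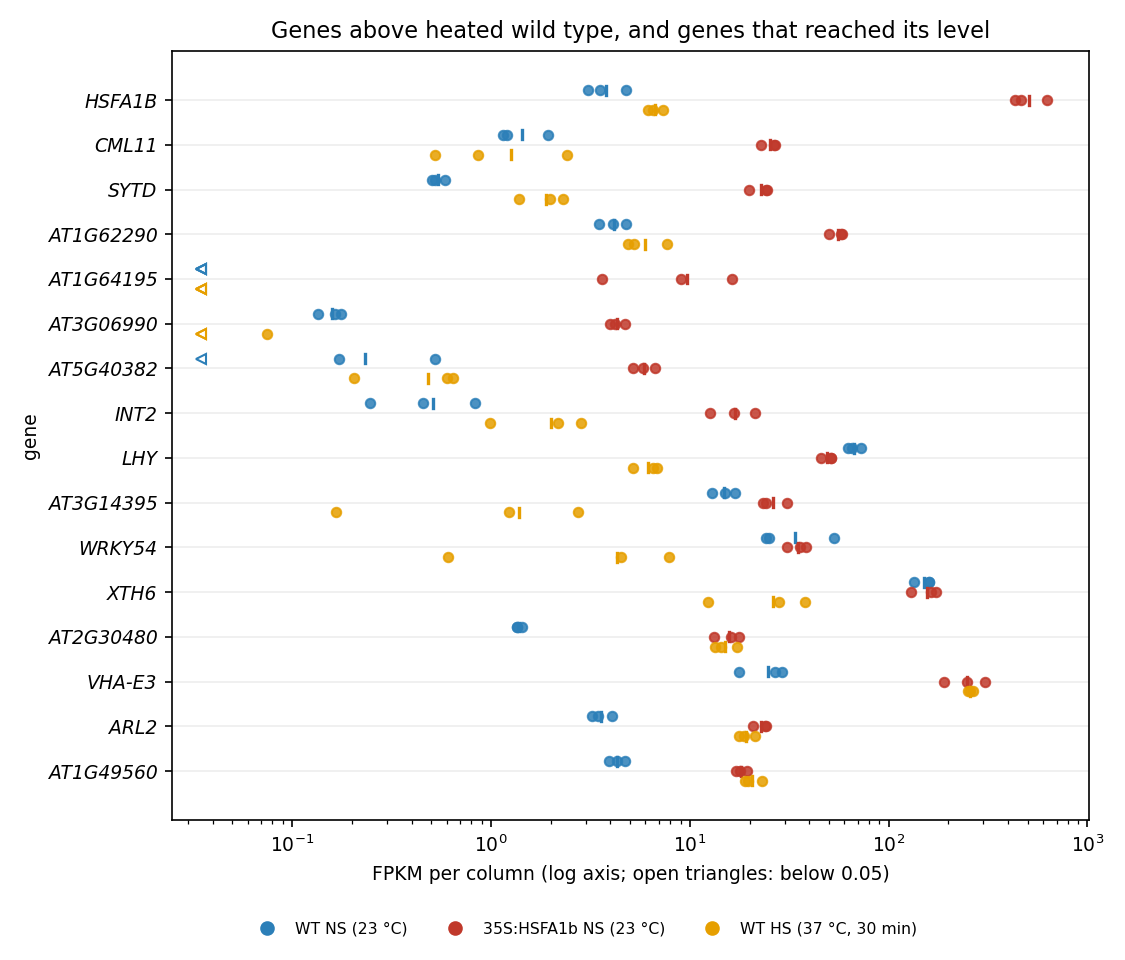
FPKM per column on a log axis for 8 genes above both wild-type groups (HSFA1B to INT2), 4 genes low in WT HS (LHY to XTH6) and 4 genes that reached the heated level (AT2G30480 to AT1G49560), with bars at group means of 3 columns and open triangles for values below 0.05. Red 35S NS points lie to the right of both other groups in the first 8 genes, with or near WT NS in the next 4, and with WT HS in the last 4.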

How the data were processed

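RNA-seq libraries of leaf RNA were made by the authors with an Illumina TruSeq kit. GSNAP alignments to TAIR10 transcripts were assembled and quantified in Cufflinks and Cuffdiff, libraries were scaled by the geometric method, and the authors deposited FPKM per locus in 1 table of 12 columns. Tool versions and strand settings are not given in the sources used here. The table holds no counts, so counting error is unknown and the spread of 3 columns is the only error. Columns were assigned to groups by their names, and their digits could not be matched to replicates in the titles. Groups follow the titles, since the genotype field says wild type throughout.

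The 9 columns of 35S NS, WT HS and WT NS were fitted with limma 3.58.1 in R 4.3.3 (lmFit, eBayes with a trend, two-sided) on log2(FPKM + 0.01), with a minimum mean of 1 FPKM and Benjamini-Hochberg adjustment over 17710 genes. The procedure was tested on simulated data with independent normal errors. Of 100 changes of 1 log2 unit 72 were recovered, and of 100 changes of 2 units 96, with 13 false calls. The simulated columns had no shared shift of abundant genes, so the test cannot show how such a shift affects the calls. Members and gene lists were chosen with earlier results of these data known. Named genes were HSFA1B, the 12 largest decreases and 12 largest increases among called genes without overlap on log2(FPKM + 1), the 8 widest gaps above and below all WT columns, the genes that reached the heated level, and list members with the largest called difference or the highest level without a call. Other members and values were added to show the range of a list. The fits with 35S NS column 2 alone, genes below 100 FPKM and cyclic loess were added after the data were seen. Alternatives covered the pseudocount, filter, scaling, groups, trend, thresholds, block and each column left out. Near-identical copies were searched with BLAST+ 2.17.0 at 90% identity over 100 bp, and coordinates and sequences are of RefSeq TAIR10.1. No column was left unassigned to a group. The 3 columns of heated overexpressor were fitted only in the alternative with all 4 groups. P-values set a difference between groups against the spread within the fitted groups of columns, steadied by that of all genes.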

Additional observations from a re-analysis of the deposited data

How the results depend on the processing

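The counts of called genes kept within 1.5 times the deposited-value counts under both other pseudocounts, both filters, upper quartile scaling, fits of 2 or 4 groups and a fit without the intensity trend. They moved further with quantile normalization (2409 lower), with an absolute log2 difference of at least 1 (1690 called, 742 higher, 948 lower) and with a stricter adjusted p limit of 0.01 (3601 called, 1501 higher, 2100 lower). Of the alternatives chosen after seeing the data, 35S NS column 2 alone gave 1920 called, 665 higher and 1255 lower, and cyclic loess and genes below 100 FPKM stayed within that range. Leaving out 1 column at a time gave 4928 to 6704 called, 2068 to 3103 higher and 2843 to 3646 lower. Same-digit columns of 35S NS and WT HS had correlated deviations of 0.04, 0.07 and 0.05, so the digits do not pair them, and the replicate block gave 5358 called, 2358 higher and 3000 lower. Quantile normalization turned APX1 to 0.03 (adjusted p = 0.86), KIN2 to 0.76 (0.046) and RBCS1A to 0 (1), and the cause was not tested. Of the 109 named genes that were called, 107 kept their direction under every alternative that gave them a value, the exceptions being APX1 and RBCS1A. A call lost with column 2 alone, a fit with 1 35S NS column, can come from its larger error alone. The table gives no counts, so depth sets no stated limit, and columns could not be assigned to submissions.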
